A study of Mus musculus with 47 samples.

Results

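Cdkn1a, Cdkn1b, Cdkn1c, Cdkn2c, Cdkn2d, Btg1, Btg2 and Ccng2 restrain cell division, and their transcripts were followed through the blood-forming populations of mouse bone marrow. The genes were chosen by name, taking probe sets annotated to that symbol alone. They make up 8 of 18194 genes with such a probe set on the array, and 14 of its 45101 probe sets. All 8 were among the 13949 genes tested, those with at least 1 group mean above the median of all log2 values (3.889).

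Expression was measured on 47 Affymetrix arrays of cells purified from the bone marrow of adult C57Bl6 mice, in 17 groups. The groups carry the names usual for stem cells (LTHSC, STHSC), multipotent progenitors (LMPP), the erythroid and megakaryocyte branch (MkE, PreCFUE, CFUE, ProE, MkP), the granulocyte and monocyte branch (GMP, GM) and the lymphoid branch (CLP, ProB, PreB, IgM+SP, ETP, CD4, NKmature), and the labels do not spell them out. LMPP had 5 arrays, MkE and PreB 4, PreCFUE, CFUE, ProE, MkP, GMP and ETP 3, and the other 8 groups 2. All groups share strain, tissue and adult age, and the labels give no treatment, engineered allele, sort marker or number of animals. The arrays of a group are labelled biological replicates without naming animals, so p-values measure the spread between arrays, which may be partly technical. Each array came from 2000 cells, and in such bulk samples fewer cells of a type and less RNA per cell cannot be told apart.

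Cyclin-dependent kinases drive cells from one phase of the division cycle to the next, and CDK inhibitors hold them back. The Cip/Kip family (Cdkn1a, Cdkn1b, Cdkn1c) binds complexes of cyclins with several kinases, while the INK4 family (Cdkn2c and Cdkn2d among them) binds Cdk4 and Cdk6 and keeps D-type cyclins from them. Btg1 and Btg2 are antiproliferative proteins that recruit the CCR4-NOT deadenylase to messenger RNAs, and Ccng2 is an unconventional cyclin known to be abundant in cells that have left the cycle. In blood formation Cdkn1c is best known from stem cells at rest, and FoxO transcription factors are known to raise Cdkn1b and Ccng2, as p53 raises Cdkn1a and Btg2.

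The group means of Btg1 and Cdkn1b had a Pearson r of 0.93 over the 17 groups, those of Btg1 and Ccng2 one of 0.80 and those of Btg1 and Btg2 one of 0.74. These points share arrays and amplification, and no test was made of them. For Btg1 and the 3 members most like it in pattern, the 250 bases before the annotated start are shown, from RefSeq on GRCm38.p6, at chr6:134920151-134920400 (plus strand) for Cdkn1b, chr10:96616751-96617000 (plus strand) for Btg1, chr1:134079156-134079405 (minus strand) for Btg2 and chr5:93267323-93267572 (plus strand) for Ccng2. Capitals mark matches on either strand to 6 motifs, CCAAT, the GC box GGGCGG, the forkhead core TGTTTAC, the cyclic AMP response element TGACGTCA, the E-box CACGTG and the TATA box TATAAA.
Cdkn1b: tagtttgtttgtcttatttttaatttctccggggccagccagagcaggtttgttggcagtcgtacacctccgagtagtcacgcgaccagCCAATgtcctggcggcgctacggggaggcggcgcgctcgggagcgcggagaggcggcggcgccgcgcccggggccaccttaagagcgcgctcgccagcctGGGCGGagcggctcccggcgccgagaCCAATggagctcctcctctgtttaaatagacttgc
Btg1: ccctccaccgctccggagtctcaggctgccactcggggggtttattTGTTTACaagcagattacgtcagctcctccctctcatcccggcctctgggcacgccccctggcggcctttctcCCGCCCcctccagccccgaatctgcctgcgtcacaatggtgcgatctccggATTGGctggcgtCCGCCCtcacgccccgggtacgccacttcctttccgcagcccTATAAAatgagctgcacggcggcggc
Btg2: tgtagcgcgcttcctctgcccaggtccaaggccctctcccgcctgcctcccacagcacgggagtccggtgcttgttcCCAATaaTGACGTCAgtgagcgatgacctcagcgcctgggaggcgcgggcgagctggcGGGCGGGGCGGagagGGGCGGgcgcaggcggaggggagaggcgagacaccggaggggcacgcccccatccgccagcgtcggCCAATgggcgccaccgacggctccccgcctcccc
Ccng2: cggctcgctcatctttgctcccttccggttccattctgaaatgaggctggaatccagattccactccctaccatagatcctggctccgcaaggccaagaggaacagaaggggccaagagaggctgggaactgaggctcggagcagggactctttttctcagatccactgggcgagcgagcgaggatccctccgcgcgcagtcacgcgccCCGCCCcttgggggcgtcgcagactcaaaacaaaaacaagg
The Cdkn1b window held CCAAT 161 and 35 bases before the start and GGGCGG at 61. Btg1 held TGTTTAC at 204, GGGCGG at 131 and 68, CCAAT at 80 and TATAAA at 26. In Btg2, TGACGTCA lay at 166, CCAAT at 173 and 34, and GGGCGG at 115, 110 and 100, the matches at 115 and 110 overlapping, and Ccng2 held GGGCGG at 41 and no other of the 6. Of 32851 such windows, 33.8% held CCAAT, 32.7% GGGCGG, 3.17% TGTTTAC, 1.55% TGACGTCA, 6.02% CACGTG and 12.4% TATAAA. Windows were found for 7 of the 8 members, Cdkn1c being the one without, and GGGCGG occurred before a start of all 7, CCAAT of 4 and CACGTG of none. These 7 members had 9 windows, Cdkn1a and Cdkn2c each having another that held none of the 6 motifs. The percentages are shares of windows, and these counts are of genes. A match describes these letters and does not show that a factor binds.

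Several libraries stood apart from their group or label. Over the 13949 genes, replicates correlated at 0.928 to 0.997. The X-inactivation transcript Xist was found without the Y-linked Eif2s3y on 21 arrays, Eif2s3y alone on 19 and both on 7 (LMPP replicates 3 to 5, ETP replicates 2 and 3, both NKmature arrays). LMPP replicates 4 and 5 had immediate early genes, which follow stress and handling within minutes, at a list mean of 9.78, 9.57, 9.14, 5.03 and 5.04 in the order of the replicates. PreB replicates 1 and 2 lay apart from 3 and 4 in mitosis genes (9.76, 9.70, 8.46 and 8.32). They also did so in the mean of natural killer markers (3.52, 3.57, 6.50 and 6.79). The ProB arrays went against their label, with 5 measured natural killer markers at a mean of 9.70 and 9.76, against 11.63 and 11.74 in NKmature and 5.49 and 5.23 in CLP. Their B cell markers stood at 7.27 and 5.68, beside 7.54 and 7.24 in CLP and 10.23, 10.06, 9.12 and 9.07 in PreB. They are called the arrays labelled ProB, and PreB was also set against CLP directly. Late neutrophil markers were high in IgM+SP (11.04 and 10.34), NKmature (10.76 and 10.86) and some PreB arrays (3.82, 6.23, 10.37 and 10.95) and low in CLP (4.55 and 5.17), CD4 (3.85 and 4.43) and ETP (4.37, 3.79 and 3.82). They parted the arrays labelled ProB (4.78 and 10.32) and, like immediate early genes, LMPP replicates 1 to 3 from 4 and 5 (3.88, 4.02, 3.86, 8.60 and 8.48).

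All 8 genes differed among the 17 groups by limma's moderated F-test over all genes, as did 90.3% of genes tested, with adjusted p from 2e-21 for Ccng2 to 3.81e-08 for Cdkn1a. The distance from the highest to the lowest group mean ran from 3.31 on the log2 scale for Cdkn1b (9.94-fold) to 6.92 for Ccng2 (121-fold, from a CFUE mean under the filter level). It was above 2 log2 units for all 8, against 53.3% of genes tested. Across 20 comparisons, a difference was called at an adjusted p under 0.05 and at least 2-fold, and 73 of the 160 member values passed, 40 higher and 33 lower, against 15.3% of values over all genes. Btg1 and Ccng2 were called in 11 comparisons, Cdkn1b, Cdkn2c and Btg2 in 10, Cdkn1a in 9, Cdkn2d in 8 and Cdkn1c in 4. Several comparisons share a group such as LTHSC, LMPP, MkE or CLP, so they are not independent.

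**Figure D1:**
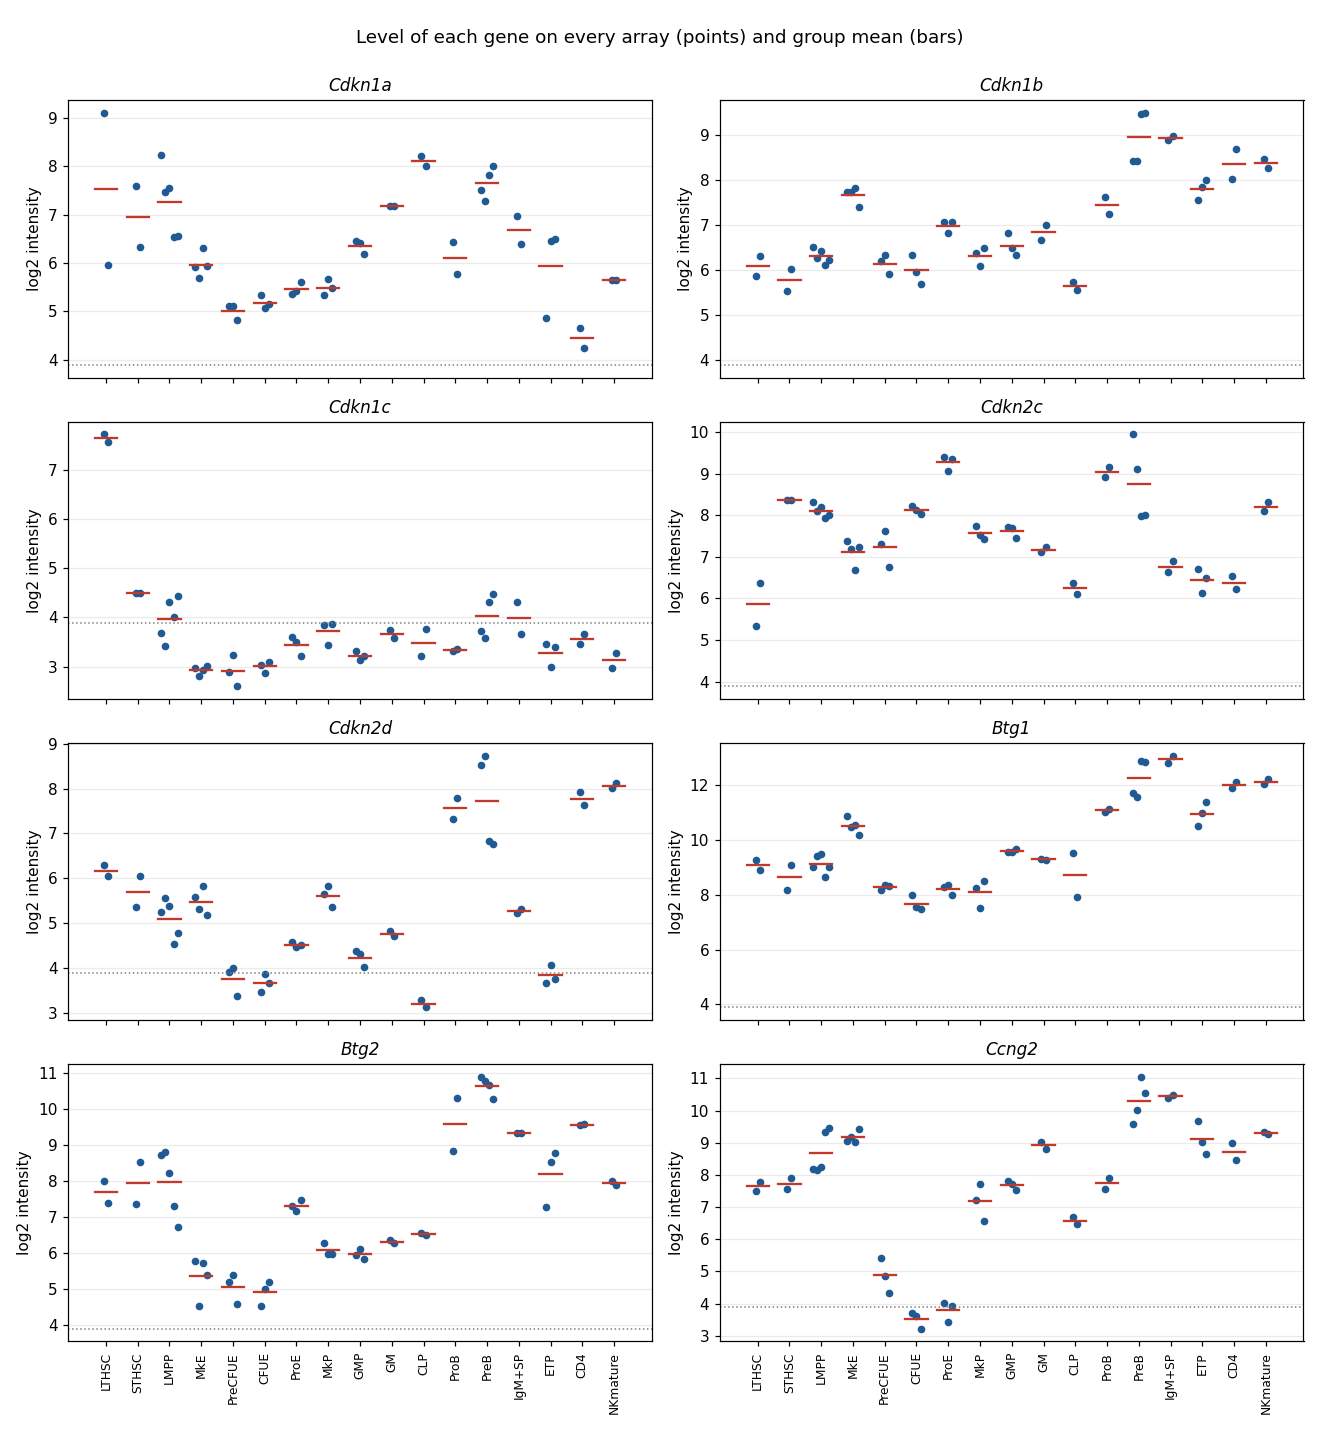
Level of each of the 8 genes (log2 of deposited intensity, vertical axis) in the 17 groups (horizontal axis); points are arrays, bars are group means, and the dotted line is the filter level of 3.889. Cdkn1c stands high in LTHSC alone, and Ccng2 reaches from a mean of 3.51 in CFUE to 10.30 in PreB and 10.44 in IgM+SP.

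Cdkn1a encodes the Cip/Kip inhibitor best known as a target of p53. On a log2 scale of intensity it read 9.11 and 5.95 in LTHSC, 7.59 and 6.33 in STHSC and 8.24, 7.48, 7.55, 6.55 and 6.56 in LMPP. In the erythroid and megakaryocyte branch it read 5.91, 5.69, 6.32 and 5.94 in MkE, 5.11, 5.10 and 4.83 in PreCFUE, 5.33, 5.06 and 5.15 in CFUE, 5.35, 5.42 and 5.61 in ProE and 5.33, 5.66 and 5.48 in MkP. The LTHSC arrays lay 3.15 apart, more than in any other group, and the levels of PreCFUE, CFUE, ProE and MkP all lay below those of the 3 stem and multipotent groups. GMP gave 6.45, 6.42 and 6.18 and GM 7.18 and 7.19. The B branch gave 8.22 and 8.01 in CLP, 6.43 and 5.78 in the arrays labelled ProB, 7.51, 7.28, 7.83 and 8.01 in PreB and 6.97 and 6.40 in IgM+SP, and the others 4.86, 6.45 and 6.50 in ETP, 4.66 and 4.24 in CD4 and 5.64 and 5.65 in NKmature. CLP was highest and CD4 lowest, 3.67 apart on the log2 scale (12.7-fold). From highest to lowest mean the order was CLP, PreB, LTHSC, LMPP, GM, STHSC, IgM+SP, GMP, ProB, MkE, ETP, NKmature, MkP, ProE, CFUE, PreCFUE, CD4, and the arrays of 13 of 16 neighbouring pairs overlapped, all but CLP with PreB, ProE with CFUE and PreCFUE with CD4. The genes whose group means ran most like it were the surface receptor Cd93 (r = 0.87 over 17 groups), the cytokine subunit Il12a (0.86) and the zinc finger gene Zfp608 (0.84).

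Cdkn1b, the Cip/Kip inhibitor that accumulates in resting lymphocytes, was highest in PreB and mature lymphocytes. Its levels were 8.43, 8.42, 9.47 and 9.49 in PreB, 8.89 and 8.98 in IgM+SP, 8.48 and 8.27 in NKmature and 8.03 and 8.69 in CD4. ETP read 7.56, 7.84 and 8.0, MkE 7.74, 7.73, 7.83 and 7.41 and the arrays labelled ProB 7.63 and 7.26. MkE thus stood beside lymphoid groups and above its erythroid and megakaryocyte neighbours. Those were 6.20, 6.32 and 5.91 in PreCFUE, 6.34, 5.96 and 5.69 in CFUE, 7.06, 6.82 and 7.06 in ProE and 6.39, 6.10 and 6.48 in MkP. The remaining groups read 5.86 and 6.32 in LTHSC, 5.54 and 6.03 in STHSC, 6.50, 6.26, 6.43, 6.11 and 6.22 in LMPP, 6.82, 6.48 and 6.33 in GMP, 6.68 and 7.0 in GM and 5.73 and 5.55 in CLP. CLP was lowest, 3.31 below PreB. The order was PreB, IgM+SP, NKmature, CD4, ETP, MkE, ProB, ProE, GM, GMP, MkP, LMPP, PreCFUE, LTHSC, CFUE, STHSC, CLP, and neighbours overlapped in 13 of 16 pairs, the exceptions being IgM+SP with NKmature, CD4 with ETP and ProB with ProE. Btg1 ran most like Cdkn1b (r = 0.93), followed by Wdr47 (0.92) and the ubiquitin-conjugating enzyme Ube2h (0.92).

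Cdkn1c, the Cip/Kip inhibitor of quiescent stem cells, read 7.72 and 7.56 in LTHSC and 4.49 and 4.50 in STHSC. LMPP read 3.69, 3.41, 4.32, 4.01 and 4.43. Both LTHSC arrays lay more than 3 log2 units above every other array, and 12 of the 17 group means were under the filter level of 3.889, so their differences rest on dim values. Among these 12 were MkE (2.98, 2.80, 2.93 and 3.02), PreCFUE (2.89, 3.24 and 2.60), CFUE (3.03, 2.88 and 3.10), ProE (3.59, 3.49 and 3.21) and MkP (3.84, 3.44 and 3.87). The others were GMP (3.32, 3.13 and 3.22), GM (3.75 and 3.58), CLP (3.21 and 3.77), the arrays labelled ProB (3.31 and 3.35), ETP (3.46, 3.0 and 3.40), CD4 (3.46 and 3.66) and NKmature (2.98 and 3.28). PreB split as 3.72, 3.58, 4.32 and 4.48 and IgM+SP read 4.31 and 3.66, so replicates 3 and 4 of PreB were near the level of STHSC. In the order of means, LTHSC, STHSC, PreB, IgM+SP, LMPP, MkP, GM, CD4, CLP, ProE, ProB, ETP, GMP, NKmature, CFUE, MkE, PreCFUE, only LTHSC with STHSC and STHSC with PreB did not overlap. The genes most like it in pattern were the myosin chaperone Unc45b (r = 0.97), the homeobox gene Hoxb5 (0.95) and the kinase gene Nrk (0.95).

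Cdkn2c, an INK4 inhibitor of Cdk4 and Cdk6, was lowest in LTHSC (5.34 and 6.37) and reached 8.36 and 8.36 in STHSC. LMPP read 8.32, 8.12, 8.20, 7.95 and 8.0. The erythroid branch read 7.37, 7.20, 6.68 and 7.25 in MkE, 7.30, 7.63 and 6.77 in PreCFUE, 8.23, 8.13 and 8.03 in CFUE and 9.40, 9.06 and 9.37 in ProE, the highest group mean. MkP (7.74, 7.54 and 7.42), GMP (7.73, 7.70 and 7.46) and GM (7.11 and 7.24) lay between. In the B branch it read 6.38 and 6.12 in CLP, 8.93 and 9.16 in the arrays labelled ProB, 9.95, 9.10, 7.99 and 8.0 in PreB and 6.63 and 6.90 in IgM+SP. ETP (6.70, 6.14 and 6.50) and CD4 (6.53 and 6.23) were low and NKmature (8.11 and 8.32) high. PreB replicates 1 and 2 were higher than 3 and 4, the split that mitosis genes also show. ProE and LTHSC lay 3.42 apart (10.7-fold). The order was ProE, ProB, PreB, STHSC, NKmature, CFUE, LMPP, GMP, MkP, PreCFUE, GM, MkE, IgM+SP, ETP, CD4, CLP, LTHSC, and all neighbours but STHSC with NKmature and LMPP with GMP overlapped. Its pattern was most like those of the phosphatase gene Cdkn3 (r = 0.93), the mitotic Birc5 (0.90) and the mitotic entry gene Cdca3 (0.89).

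Cdkn2d, the other INK4 inhibitor, was highest in NKmature (8.0 and 8.13), CD4 (7.92 and 7.64), PreB (8.53, 8.74, 6.83 and 6.77) and the arrays labelled ProB (7.33 and 7.80). It was lowest in CLP (3.28 and 3.12), 4.87 below NKmature (29.1-fold). CFUE (3.47, 3.86 and 3.66), PreCFUE (3.91, 3.99 and 3.38) and ETP (3.67, 4.08 and 3.76) were also low, and with CLP they make up the 4 group means under the filter level. Between them stood LTHSC (6.30 and 6.05), STHSC (5.35 and 6.05), LMPP (5.24, 5.56, 5.38, 4.53 and 4.77), MkE (5.57, 5.32, 5.84 and 5.18) and MkP (5.64, 5.83 and 5.36). ProE (4.59, 4.46 and 4.52), GMP (4.37, 4.30 and 4.01), GM (4.82 and 4.72) and IgM+SP (5.23 and 5.32) did so too. The 4 PreB arrays split as for Cdkn2c, replicates 1 and 2 above 3 and 4, and this gene had the most groups apart from their neighbours. In the order NKmature, CD4, PreB, ProB, LTHSC, STHSC, MkP, MkE, IgM+SP, LMPP, GM, ProE, GMP, ETP, PreCFUE, CFUE, CLP, 6 of 16 neighbouring pairs did not overlap, NKmature with CD4, ProB with LTHSC, LTHSC with STHSC, GM with ProE, ProE with GMP and CFUE with CLP. The genes most like it were the gamma-secretase subunit Psenen (r = 0.91), the kinesin light chain Klc3 (0.91) and the lipid kinase Pi4ka (0.89).

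Btg1 was high in lymphocytes, at 12.81 and 13.09 in IgM+SP, 11.71, 11.59, 12.91 and 12.87 in PreB, 12.06 and 12.23 in NKmature and 11.90 and 12.12 in CD4. The arrays labelled ProB read 11.04 and 11.15, ETP 10.54, 10.98 and 11.38 and MkE 10.90, 10.47, 10.55 and 10.19. On this brightest probe set, a gap to GMP (9.58, 9.58 and 9.68) that no array bridged lay below these 7 groups. LTHSC (9.28 and 8.90), STHSC (8.18 and 9.11), LMPP (9.03, 9.41, 9.49, 8.66 and 9.01), GM (9.33 and 9.28) and CLP (9.54 and 7.93) followed. PreCFUE (8.18, 8.36 and 8.34), ProE (8.28, 8.35 and 7.99), MkP (8.24, 7.51 and 8.52) and CFUE (8.0, 7.57 and 7.49) were lowest, 5.27 (38.5-fold) separating IgM+SP from CFUE. The CLP arrays were 1.61 apart. In the order IgM+SP, PreB, NKmature, CD4, ProB, ETP, MkE, GMP, GM, LMPP, LTHSC, CLP, STHSC, PreCFUE, ProE, MkP, CFUE, neighbours overlapped in 13 of 16 pairs and not in CD4 with ProB, MkE with GMP and GMP with GM. Most like it were the Hippo pathway kinase Stk4 (r = 0.95), the Smad corepressor Skil (0.95) and Ccm2 (0.94). On another bright probe set of Btg1, LTHSC (mean 9.95, arrays 9.67 and 10.22) lay above MkE (mean 9.74, arrays from 9.64 to 9.87). By that set MkE was not set apart from LTHSC.

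Btg2, which p53 and immediate early signals are known to induce, was highest in PreB (10.89, 10.76, 10.65 and 10.26). The arrays labelled ProB (8.83 and 10.31), CD4 (9.55 and 9.57) and IgM+SP (9.33 and 9.33) came next. Stem and multipotent cells were intermediate, with 8.0 and 7.39 in LTHSC, 7.36 and 8.51 in STHSC and 8.72, 8.80, 8.22, 7.31 and 6.72 in LMPP. Replicates 4 and 5 of LMPP, the arrays low in immediate early genes, were the lowest of their group, as was ETP replicate 1 (7.27, 8.52 and 8.78). MkE (5.77, 4.53, 5.72 and 5.38), PreCFUE (5.18, 5.38 and 4.58) and CFUE (4.51, 5.0 and 5.20) had the lowest levels. ProE read 7.29, 7.16 and 7.46 and MkP 6.28, 5.98 and 5.97. GMP (5.93, 6.12 and 5.84), GM (6.34 and 6.26), CLP (6.55 and 6.49) and NKmature (8.0 and 7.89) completed the range, 5.74 (53.3-fold) from PreB to CFUE. All ProE arrays thus lay above those of CFUE. In the order PreB, ProB, CD4, IgM+SP, ETP, LMPP, NKmature, STHSC, LTHSC, ProE, CLP, GM, MkP, GMP, MkE, PreCFUE, CFUE, 5 of 16 neighbouring pairs were apart, CD4 with IgM+SP, IgM+SP with ETP, ProE with CLP, CLP with GM and GMP with MkE. Klf2, a transcription factor of resting T cells (r = 0.91), the immediate early gene Ier5 (0.90) and the AP-1 gene Jund (0.90) ran most like it.

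Ccng2 had the widest range of the 8 genes. It read 10.39 and 10.49 in IgM+SP and 9.58, 10.03, 11.05 and 10.54 in PreB against 3.70, 3.62 and 3.22 in CFUE, 4.03, 3.43 and 3.94 in ProE and 5.41, 4.87 and 4.34 in PreCFUE. MkE, from which these erythroid stages are taken to descend, read 9.06, 9.18, 9.01 and 9.44, and MkP 7.23, 7.73 and 6.58. No array of the 3 erythroid groups came within 1 log2 unit of any other group's arrays. LTHSC (7.50 and 7.79), STHSC (7.55 and 7.90), LMPP (8.18, 8.14, 8.24, 9.32 and 9.45), GMP (7.82, 7.71 and 7.53) and GM (9.02 and 8.81) were intermediate to high. CLP (6.69 and 6.47), the arrays labelled ProB (7.58 and 7.90), ETP (9.68, 9.03 and 8.64), CD4 (8.98 and 8.46) and NKmature (9.33 and 9.27) were too. CFUE and ProE lay under the filter level. In the order IgM+SP, PreB, NKmature, MkE, ETP, GM, CD4, LMPP, ProB, STHSC, GMP, LTHSC, MkP, CLP, PreCFUE, ProE, CFUE, 4 of 16 neighbouring pairs were apart, PreB with NKmature, LMPP with ProB, CLP with PreCFUE and PreCFUE with ProE. The kinase Tec (r = 0.92), the receptor Tgfbr2 (0.91) and the filament protein Vim (0.90) had the most similar patterns.

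The levels above are those of the brightest probe set of each gene, and 5 of the 8 genes had others. Over the 17 group means the second probe set of Cdkn1a correlated with the first at 0.88, those of Btg1 at 0.96 and 0.83, that of Btg2 at 0.86, that of Cdkn1b at 0.75 and that of Ccng2 at 0.69. The second sets of Cdkn1b and Ccng2 were dim, with 5 and 2 group means above 3.889. Averaging all probe sets of each gene left 59 of 160 values called in place of 73, and Ccng2 with 5 calls in place of 11. Calls that ended this way are named below with the comparison.

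**Figure D2:**
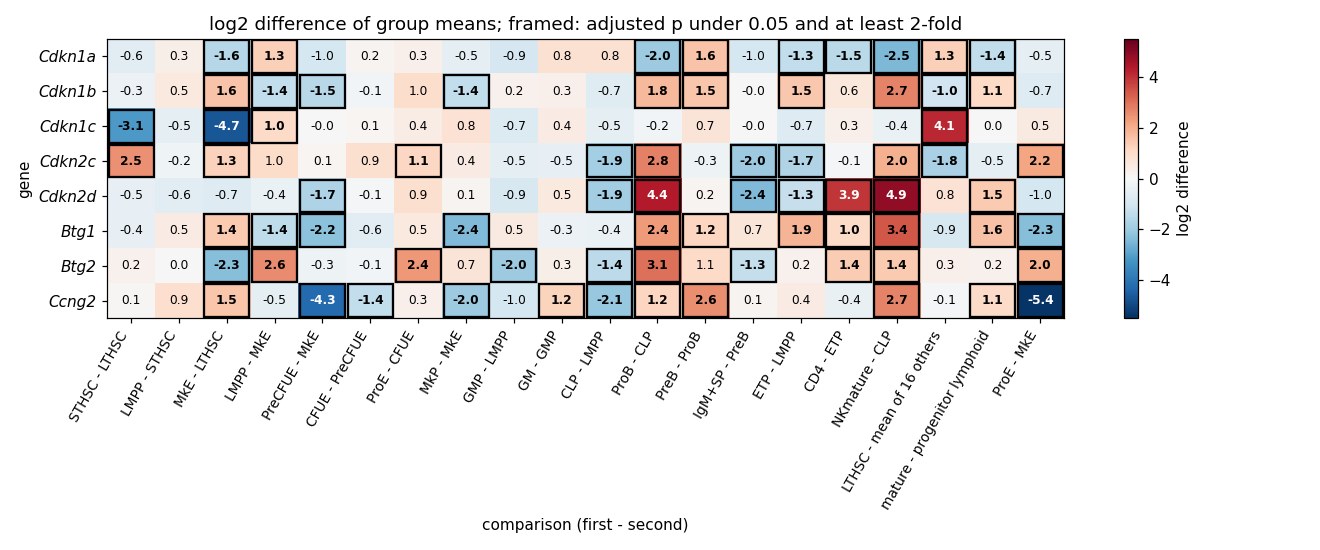
Log2 difference of the 8 genes (rows) in the 20 comparisons (columns, first group minus second), coloured from lower to higher; framed cells were called. Cdkn1c is called 4 times, each in a comparison of LTHSC or of LMPP with MkE, while Btg1 and Ccng2 are called in 11.

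The comparison of STHSC with LTHSC asked what separates the stem cell groups. Cdkn1c fell in STHSC (-3.15 ± 0.28, adjusted p = 4.85e-10, 8.86-fold) and Cdkn2c rose (2.51 ± 0.37, adjusted p = 1.09e-05), where ± is the standard error of a log2 difference from the fit over all 47 arrays. These were 2 of 8 members, beside 6.81% of genes tested. Cdkn1a had a difference of -0.57 ± 0.56 and was not called. Of 22 mitosis genes 21 rose (list median 2.49, all genes -0.13), and 7 of 18 cyclins, kinases and partners rose, with cyclin Ccna2 (3.73 ± 0.52) first. Of 19 other inhibitors of division tested, the phosphatase gene Cdkn3 rose (2.13 ± 0.51), and Txnip (-2.17 ± 0.47), Gadd45g (-1.53 ± 0.48) and Ccng1 (-1.07 ± 0.27) fell. Fitted on these 4 arrays alone, Cdkn2c had an adjusted p of 0.0635. Without LTHSC replicate 2, Cdkn1a was called lower (-2.15).

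Set against the mean of all 16 other groups, LTHSC had Cdkn1c 17.5-fold higher (4.13 ± 0.20, adjusted p = 1.78e-18). Cdkn1a was also higher (1.31 ± 0.40, adjusted p = 0.0102), and Cdkn2c (-1.79 ± 0.27, adjusted p = 1.46e-06) and Cdkn1b (-1.04 ± 0.21, adjusted p = 0.000161) were lower, which made 4 of 8 against 16.3% of all genes. Against that mean LTHSC therefore carried Cdkn1c high and Cdkn1b low, members of 1 family. Low Cdkn1b was not particular to LTHSC (mean 6.09), as CFUE (6.0), STHSC (5.78) and CLP (5.64) had lower means. Of 9 measured genes that neighbour Cdkn1c on its chromosome, 3 were called higher, Phlda2 (2.12 ± 0.19), Cd81 (1.73 ± 0.18) and Tssc4 (1.20 ± 0.26). Of 22 mitosis genes 19 were lower, and of 14 immediate early genes 12 were higher. Other inhibitors went both ways, 5 of 19 higher, such as Klf4 (2.91 ± 0.65) and Gadd45g (1.48 ± 0.35), and 3 lower, such as Cdkn3 (-1.87 ± 0.37) and Rb1 (-1.82 ± 0.28), the retinoblastoma gene. Without LTHSC replicate 1, Cdkn1a was -0.26 and Cdkn1b -0.81, neither called, and without replicate 2 Cdkn1a was 2.89. With the mean of probe sets Cdkn1b was -0.80, and with the class of Xist and Eif2s3y as a block Cdkn1a had an adjusted p of 0.0765, while Cdkn2d (1.61) and Btg1 (-1.46) were called. With intensities under 16 raised to that floor, the difference of Cdkn1c was 3.58, where 12 of the 16 others are under the filter level.

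LMPP did not differ from STHSC in any member by the call rule, which 5.42% of all genes passed. Ccng2 had the largest difference (0.94 ± 0.34, adjusted p = 0.0783), its LMPP arrays 4 and 5 lying over 1 log2 unit above the other 3. Among the 8, 3 had an unadjusted p under 0.05, and the lowest adjusted p was 0.0783. Ccng2 was called without LMPP replicate 1 (1.06) or 2 (1.07).

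From LTHSC to MkE 7 of 8 members were called, 4 higher and 3 lower, against 19.3% of all genes. Cdkn1c (-4.71 ± 0.24, adjusted p = 9.76e-18), Btg2 (-2.35 ± 0.43, adjusted p = 4.66e-05) and Cdkn1a (-1.56 ± 0.48, adjusted p = 0.0115) were lower in MkE. Cdkn1b (1.59 ± 0.25, adjusted p = 5.58e-06), Ccng2 (1.52 ± 0.35, adjusted p = 0.000874), Btg1 (1.44 ± 0.35, adjusted p = 0.00124) and Cdkn2c (1.26 ± 0.32, adjusted p = 0.00224) were higher. Cdkn1a is the exception in that its arrays overlap, LTHSC replicate 2 lying among those of MkE. Of the immediate early genes 13 of 14 were lower (list median -4.70), among them Jun (-8.26 ± 1.37) and Fos (-7.54 ± 1.54), and their part in the differences of Btg2 and Cdkn1a was not tested. Mitosis genes were higher in 16 of 22 cases and lower in 1. Of the other inhibitors, 4 of 19 were lower, such as Klf4 (-5.62 ± 0.78) and Gadd45b (-1.98 ± 0.47), and 4 higher, such as Rb1 (1.85 ± 0.33) and Ccng1 (1.63 ± 0.24). Without LTHSC replicate 1, Cdkn1a was 0.01 and Cdkn2c 0.75, and without replicate 2 Cdkn1a was -3.14. The groups share no class of Xist and Eif2s3y, so that block takes its size from other groups, here and wherever no class is shared. With it Cdkn2d was called (-2.52) and Cdkn1a was -1.04 and Cdkn2c -0.27, while with the mean of probe sets Cdkn1b was 0.91, Btg1 -0.21 and Ccng2 0.68, none of them called. The second probe set of Btg2 alone gave -0.78 (adjusted p = 0.423).

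LMPP against MkE, progenitors named for lymphoid and for erythroid fates, had 5 of 8 members called, against 12.6% of all genes. Btg2 (2.61 ± 0.33, adjusted p = 6.95e-08), Cdkn1a (1.31 ± 0.37, adjusted p = 0.00643) and Cdkn1c (1.04 ± 0.19, adjusted p = 3.52e-05) were higher in LMPP. Btg1 (-1.41 ± 0.27, adjusted p = 6.97e-05) and Cdkn1b (-1.37 ± 0.20, adjusted p = 6.2e-07) were lower. By their brightest probe sets the Btg genes thus lay on opposite sides of this comparison, Btg2 with LMPP and Btg1 with MkE. Immediate early genes were higher in LMPP in 12 of 14 cases and mitosis genes in 19 of 22. Of 19 other inhibitors, 3 were higher, Klf4 (4.13 ± 0.60) first, and 5 lower, among them Ccng1 (-1.91 ± 0.18) and Txnip (-1.87 ± 0.32). The call of Cdkn1c, dim in MkE, ended without LMPP replicate 3 (0.95) or 5 (0.93), without MkE replicate 2 (1.0), without LMPP replicates 4 and 5 (0.88) and with a floor of 16 (0.15). No class of Xist and Eif2s3y is shared, and with it as a block Cdkn1a was 0.81 and Cdkn1c 0.08, while with the mean of probe sets Cdkn1b was -0.73 and Btg1 -0.44, none of them called. The same block brought calls of Cdkn2c (2.67), Cdkn2d (1.59) and Ccng2 (-1.63), and Cdkn2c (0.99 ± 0.25), just short of 2-fold, was also called without LMPP replicates 4 and 5 (1.09).

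The step from MkE to PreCFUE, the entry to the erythroid path, had 4 members called, all lower, against 4.44% of all genes called lower and 7.31% called in either direction. Ccng2 fell most, by 19.6-fold (-4.30 ± 0.31, adjusted p = 3.21e-13). Btg1 (-2.24 ± 0.30, adjusted p = 8.36e-07), Cdkn2d (-1.72 ± 0.31, adjusted p = 7.99e-05) and Cdkn1b (-1.53 ± 0.22, adjusted p = 2.8e-06) fell too. In each of these the arrays of MkE and PreCFUE did not overlap. With their dim second probe sets alone, Ccng2 (-0.20) and Cdkn1b (-0.69) were not called, nor was Btg1 with 1 of its other sets (-0.99). Their calls stayed with the mean of probe sets. PreCFUE is under the filter level for Cdkn2d, which differed by -1.48 with the floor of 16. Mitosis genes rose in 11 of 22 cases, and 4 of 19 other inhibitors fell, the Myc antagonist Mxd4 (-1.96 ± 0.20), Txnip (-1.63 ± 0.36), Hbp1 (-1.61 ± 0.22) and Gadd45g (-1.06 ± 0.36). Among 12 tested FoxO targets, Sesn3 (-2.73 ± 0.24), Pik3ip1 (-2.62 ± 0.21) and Cited2 (-2.0 ± 0.26) fell and none rose, and of 16 regulators Mycn alone was called (-4.67 ± 0.33).

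Between PreCFUE and CFUE, Ccng2 was the 1 member called, falling further (-1.36 ± 0.33, adjusted p = 0.00913), where 2.65% of all genes were called. CFUE lies under the filter level for this gene. Without CFUE replicate 3 (-1.22) or PreCFUE replicate 1 (-1.10), with a floor of 16 (-0.88) or with the mean of probe sets (-0.69) the call ended. In ProE against CFUE, Btg2 rose (2.40 ± 0.41, adjusted p = 7.34e-05) and Cdkn2c rose (1.15 ± 0.30, adjusted p = 0.0108), 2 of 8 beside 4.62% of all genes. The second probe set of Btg2, above the filter level in all 17 groups, differed by 0.72 (adjusted p = 0.592). Rb1 (1.65 ± 0.31) and Gadd45g (1.29 ± 0.39) rose as well, and so did 5 of 22 mitosis genes. CFUE and ProE share no class of Xist and Eif2s3y, and with it as a block Cdkn2d was called (2.69 in place of 0.86). Cdkn1b (0.98 ± 0.24) was called without CFUE replicate 1 (1.16) or ProE replicate 2 (1.07). Cdkn2c missed the threshold without CFUE replicate 3 (1.10, adjusted p = 0.0509) or ProE replicate 1 (1.08, adjusted p = 0.0536).

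Over the whole erythroid path, ProE against MkE, Ccng2 fell by 41.4-fold (-5.37 ± 0.31, adjusted p = 5.16e-17, or -5.16 with the floor of 16, ProE being under the filter level) and Btg1 fell (-2.32 ± 0.30, adjusted p = 7.02e-08). Cdkn2c (2.15 ± 0.28, adjusted p = 7.56e-08) and Btg2 (1.96 ± 0.38, adjusted p = 6.43e-05) rose, so 4 of 8 were called, beside 20.5% of all genes. By their brightest probe sets the Btg genes therefore went opposite ways. Cdkn1b (-0.70 ± 0.22) and Cdkn2d (-0.96 ± 0.31) stayed short of 2-fold in this fit. Of 22 mitosis genes 21 rose and 1 fell. Of 18 cyclins, kinases and partners 9 rose, among them the E-type cyclins Ccne2 (4.41 ± 0.32) and Ccne1 (4.36 ± 0.24), and 3 fell, Ccnd2 (-3.65 ± 0.24) first. FoxO targets fell in 4 of 12 cases, Pik3ip1 (-5.05 ± 0.21) first. The groups share no class of Xist and Eif2s3y, and with it as a block Cdkn1b was called (-1.76, adjusted p = 9.77e-06). Cdkn2d was called without MkE replicate 2 (-1.01) or 4 (-1.06), and with the mean of probe sets Btg2 was 1.03 (adjusted p = 0.0546). The second probe set of Btg2 alone gave 0.10 (adjusted p = 0.929).

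MkP, the megakaryocyte side of the same branch, had 3 members called against MkE, all lower, beside 8.55% of all genes called lower and 11.5% called in either direction. These were Btg1 (-2.44 ± 0.30, adjusted p = 1.06e-07), Ccng2 (-1.99 ± 0.31, adjusted p = 7.43e-06) and Cdkn1b (-1.35 ± 0.22, adjusted p = 1.64e-05). The 3 genes also fell from MkE to PreCFUE, a comparison that shares the MkE arrays, and there Ccng2 differed by -4.30 against -1.99. Of 19 other inhibitors 8 fell, such as the DNA damage gene Gadd45a (-3.45 ± 0.41), Txnip (-1.86 ± 0.36) and Tob1 (-1.64 ± 0.29), a relative of the Btg genes, and Gadd45b rose (1.19 ± 0.42). Mitosis genes rose in 8 of 22 cases. With the mean of probe sets Ccng2 was -0.92, and with quantile normalization again Cdkn1b was -0.99, both under 2-fold, while Btg2 was called with the latter (1.04 in place of 0.73).

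In GMP against LMPP, Btg2 alone of the members was called (-1.99 ± 0.36, adjusted p = 3.45e-05), lower in GMP, where 16.8% of all genes were called. Immediate early genes were lower in 9 of 14 cases (list median -2.10), and their part in the difference of Btg2 was not tested. Cdkn1a (-0.92 ± 0.41), Cdkn2d (-0.87 ± 0.29) and Ccng2 (-0.98 ± 0.30) stayed under 2-fold. Without LMPP replicates 4 and 5, Cdkn1a (-1.40) and Cdkn2d (-1.17) were called. Leaving out LMPP replicate 4 alone did the same for both (-1.10 and -1.01), replicate 5 for Cdkn1a (-1.10), and LMPP replicate 1, 2 or 3 or GMP replicate 1 for Ccng2 (-1.10, -1.11, -1.09 and -1.04).

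From GMP to GM, Ccng2 rose (1.23 ± 0.37, adjusted p = 0.0237), 1 of 8 beside 7.95% of all genes. The FoxO targets Il7r (2.98 ± 0.70), Sesn1 (1.39 ± 0.24), Sesn3 (1.17 ± 0.29) and Pik3ip1 (1.03 ± 0.25) rose, as did Foxo3 (1.93 ± 0.29). No mitosis gene of 22 was called, and GMP and GM share no class of Xist and Eif2s3y. With it as a block Cdkn1b (1.36), Cdkn1c (1.19), Cdkn2c (-1.99) and Cdkn2d (-1.29) were called beside Ccng2, which makes 5 of 8. The call of Ccng2 ended without GM replicate 1 (1.13) or 2 (1.33), without GMP replicate 2 (1.24) or 3 (1.15) and with the mean of probe sets (0.54).

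CLP had less of 4 members than LMPP, beside 18.1% of all genes called lower and 21.2% called in either direction. Ccng2 (-2.09 ± 0.34, adjusted p = 6.83e-06), Cdkn2d (-1.90 ± 0.34, adjusted p = 2.46e-05), Cdkn2c (-1.87 ± 0.31, adjusted p = 8.91e-06) and Btg2 (-1.43 ± 0.42, adjusted p = 0.00572) fell. The CLP mean of Cdkn2d is under the filter level, and the difference of this gene was -1.10 with the floor of 16. CLP had the lowest group mean of Cdkn1b and Cdkn2d and the highest of Cdkn1a, for which the difference was 0.84 ± 0.47 and not called. Mitosis genes fell in 21 of 22 cases (list median -2.52), and 8 of 19 other inhibitors fell, among them the retinoblastoma relatives Rbl2 (-2.38 ± 0.44) and Rbl1 (-2.17 ± 0.33), Tob1 (-2.07 ± 0.32) and Klf4 (-2.0 ± 0.75), while Mxd4 rose (1.67 ± 0.21). The FoxO gene Foxo1, required for early B cells, rose (2.96 ± 0.29), and of 12 FoxO targets Il7r rose (4.72 ± 0.64) and Bcl6 (-1.45 ± 0.43) and Cited2 (-1.20 ± 0.28) fell (list median -0.47). Btg2 missed the threshold without CLP replicate 2 (-1.41, adjusted p = 0.0542), in a fit of these groups alone (adjusted p = 0.0674) and with the mean of probe sets (-0.85). Without CLP replicate 1, Btg1 was called too (-1.19), as was Cdkn1a with quantile normalization again (1.33).

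PreB was set against CLP directly, a comparison added after the data had been seen because of the markers of the arrays labelled ProB. Here 6 of 8 members were called, all higher in PreB, beside 25% of all genes called higher and 35.5% called in either direction. The differences were 4.52 ± 0.35 for Cdkn2d, 4.12 ± 0.43 for Btg2, 3.72 ± 0.35 for Ccng2, 3.53 ± 0.35 for Btg1, 3.31 ± 0.25 for Cdkn1b and 2.51 ± 0.32 for Cdkn2c, with adjusted p at or under 3.31e-08. CLP is under the filter level for Cdkn2d, so that difference rests on dim values. Cdkn1a (-0.46 ± 0.48) and Cdkn1c (0.54 ± 0.24) were not called. The same 6 genes were called with PreB replicates 1 and 2 alone, where 40.3% of all genes were called, and with 3 and 4 alone, where 34% were. Cdkn2c was 3.28 ± 0.28 higher with the first pair and 1.75 ± 0.26 with the second, and Cdkn2d 5.43 ± 0.27 and 3.6 ± 0.27. Btg1 had the opposite order, 2.91 ± 0.35 and 4.15 ± 0.35, as had Cdkn1b with 2.78 ± 0.24 and 3.84 ± 0.24.

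**Figure D3:**
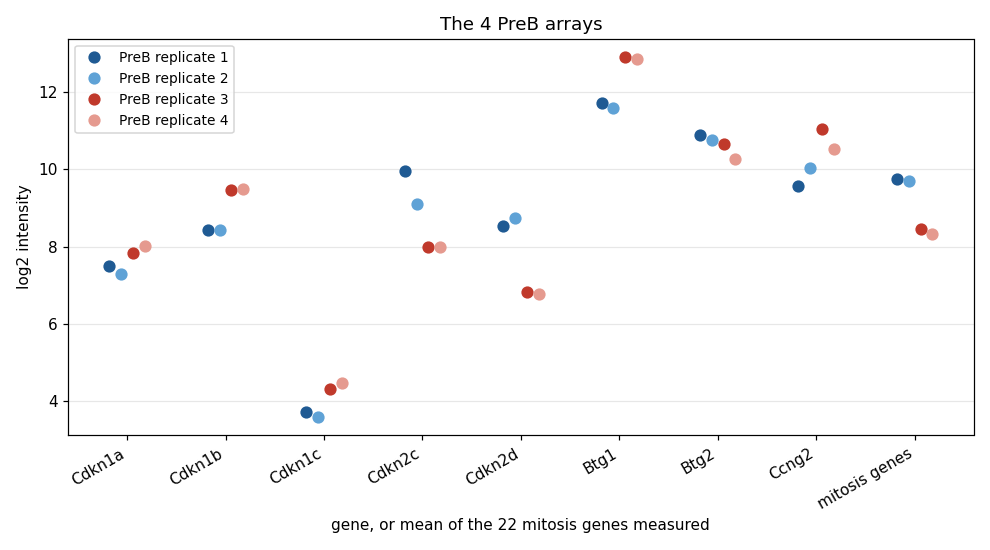
Log2 level (vertical axis) of the 8 genes and of the mean of 22 mitosis genes on the 4 PreB arrays (points, by replicate). Replicates 1 and 2 lie above 3 and 4 in Cdkn2c, Cdkn2d, Btg2 and the mitosis mean. They lie below 3 and 4 in Cdkn1a, Cdkn1b, Cdkn1c, Btg1 and Ccng2.

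The PreB arrays thus came in pairs that also differ in sex-linked transcripts and in neutrophil markers (3.82, 6.23, 10.37 and 10.95). Natural killer markers read 3.52, 3.57, 6.50 and 6.79 in the same order, and B cell markers 10.23, 10.06, 9.12 and 9.07. On replicates 1 and 2 the mean of mitosis genes was high together with both INK4 genes, at 9.95, 9.10, 7.99 and 8.0 for Cdkn2c over replicates 1 to 4 and 8.53, 8.74, 6.83 and 6.77 for Cdkn2d. Btg2 was also higher on replicates 1 and 2. On replicates 3 and 4 Cdkn1b, Btg1 and Ccng2 were higher. What separates the pairs was not tested.

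The steps through the arrays labelled ProB carry that doubt about the label. Against CLP, 7 of 8 members were called, beside 29.5% of all genes. Cdkn2d (4.36 ± 0.40, adjusted p = 5.23e-11, 20.6-fold, or 3.56 with the floor of 16, CLP being dim), Btg2 (3.05 ± 0.50, adjusted p = 5.57e-06), Cdkn2c (2.79 ± 0.37, adjusted p = 1.5e-07), Btg1 (2.36 ± 0.40, adjusted p = 9.8e-06), Cdkn1b (1.80 ± 0.29, adjusted p = 4.93e-06) and Ccng2 (1.16 ± 0.41, adjusted p = 0.02) were higher. Cdkn1a was lower (-2.01 ± 0.56, adjusted p = 0.00363). Neutrophil markers differed between the arrays labelled ProB (4.78 and 10.32), and their part was not tested. Mitosis genes were higher in 9 of 22 cases, and other inhibitors in 6 of 19, Klf4 (3.86 ± 0.90) and Rb1 (3.07 ± 0.38) first. The groups share no class of Xist and Eif2s3y, with which as a block Cdkn1a was -1.48 and not called. Without ProB replicate 2 Cdkn1a was -1.68 and Ccng2 1.0, without CLP replicate 2 Ccng2 was 1.05 and Btg1 1.56, and the mean of probe sets (0.59) and quantile normalization (0.62) ended the call of Ccng2.

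Against the arrays labelled ProB, PreB had 4 members higher, beside 11.2% of all genes called higher and 20.3% called in either direction. These were Ccng2 (2.56 ± 0.35, adjusted p = 2.94e-07), Cdkn1a (1.55 ± 0.48, adjusted p = 0.0115), Cdkn1b (1.51 ± 0.25, adjusted p = 9.61e-06) and Btg1 (1.17 ± 0.35, adjusted p = 0.00789). Btg2 (1.07 ± 0.43, adjusted p = 0.0543) lay just above the adjusted p of the call, and was called with a stricter filter (adjusted p = 0.043), centred arrays (0.0409), the class of Xist and Eif2s3y as a block (0.0498) and without LMPP replicates 4 and 5 (0.0191). Of 19 other inhibitors 7 were higher, among them Gadd45a (2.56 ± 0.47), Mxi1 (2.08 ± 0.25) and Tob1 (1.90 ± 0.33), and of 16 regulators 5 were higher, Foxo1 (2.69 ± 0.30) first. Mitosis genes were higher in 15 of 22 cases. Without PreB replicates 3 and 4, Cdkn1a was 1.29, Cdkn1b 0.98 and Btg1 0.55, none called, while without replicates 1 and 2 Cdkn1c (1.07) and Cdkn2c (-1.05) were called. Cdkn2d (0.15 ± 0.35) was called without replicates 3 and 4 (1.07) and, at the same value, with the class block, which ended the calls of Cdkn1a, Cdkn1b and Btg1 in the same way. Without ProB replicate 2, Cdkn1a was 1.22 and no longer called and Btg2 was called (1.81), as it was without PreB replicate 4 (1.20), and Btg1 lost its call without PreB replicate 3 (0.95) or 4 (0.97) or ProB replicate 1 (1.11). With the mean of probe sets Btg1 was 1.02 (adjusted p = 0.0546), and in a fit of these groups alone Cdkn1b (adjusted p = 0.0538) and Btg1 (0.146) missed the threshold.

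IgM+SP, the B cells that carry surface IgM by their name, had 3 members lower than PreB, beside 9.43% of all genes called lower and 12.8% called in either direction. Both INK4 genes fell, Cdkn2d (-2.44 ± 0.35, adjusted p = 2.36e-06) and Cdkn2c (-2.0 ± 0.32, adjusted p = 1.54e-05), and so did Btg2 (-1.31 ± 0.43, adjusted p = 0.0249). Cdkn1b (-0.02 ± 0.25), Btg1 (0.68 ± 0.35) and Ccng2 (0.14 ± 0.35) were not called, but without PreB replicates 3 and 4 Btg1 was higher (1.30, adjusted p = 0.00282) and with the mean of probe sets Cdkn1a (-0.97 ± 0.48) was lower (-1.23, adjusted p = 0.0338). All 22 mitosis genes fell (list median -2.18), as did Cdkn3 (-2.53 ± 0.44). The neutrophil list mean was 11.04 and 10.34 on the IgM+SP arrays, and its part in these differences was not tested. In a fit of these groups alone the adjusted p of Cdkn2d was 0.109 and that of Cdkn2c 0.132. The call of Btg2 ended without IgM+SP replicate 1 (-1.31) or 2 (-1.31), without PreB replicate 1 (-1.23) or 2 (-1.27) and without both (-1.13).

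In ETP, named for early T cell progenitors, 5 of 8 members were called against LMPP, beside 11.9% of all genes. Btg1 (1.85 ± 0.29, adjusted p = 8.7e-06) and Cdkn1b (1.49 ± 0.21, adjusted p = 1.71e-06) rose. Cdkn2c (-1.67 ± 0.27, adjusted p = 1.35e-05), Cdkn2d (-1.26 ± 0.29, adjusted p = 0.00119) and Cdkn1a (-1.34 ± 0.41, adjusted p = 0.011) fell. The ETP mean of Cdkn2d is under the filter level, and the difference of this gene was -1.07 with the floor of 16. CLP, also set against the LMPP arrays, had both INK4 genes lower (-1.87 and -1.90) and no call for Btg1 (-0.38) or Cdkn1b (-0.67). Mitosis genes fell in 18 of 22 cases, and of 16 regulators Mycn (3.36 ± 0.32), the Notch target Hes1 (2.92 ± 0.50), and Skp2 (1.79 ± 0.32) and Fbxw7 (1.70 ± 0.26), which mark cell cycle proteins for degradation, rose. Without ETP replicate 1 Cdkn1a was -0.80 and not called, and in a fit of these groups alone its adjusted p was 0.0508.

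CD4 had 4 of 8 members called against ETP, beside 26.5% of all genes. Cdkn2d was 15.4-fold higher (3.94 ± 0.37, adjusted p = 3.17e-11), with ETP under the filter level, and differed by 3.75 with the floor of 16. Btg2 (1.38 ± 0.45, adjusted p = 0.0148) and Btg1 (1.04 ± 0.36, adjusted p = 0.0216) were higher and Cdkn1a lower (-1.48 ± 0.51, adjusted p = 0.0189). Mitosis genes were lower in 20 of 22 cases and cyclins, kinases and partners in 11 of 18, Cdk6, a target of the INK4 inhibitors, first (-4.96 ± 0.27). Skp2, which targets Cdkn1b for degradation, was lower (-3.29 ± 0.40), while Cdkn1b itself differed by 0.56 ± 0.27 and was not called. Its second probe set, dim in most groups, differed by 2.55, and with the mean of its probe sets Cdkn1b was called higher (1.56, adjusted p = 0.00329). The FoxO targets S1pr1 (5.39 ± 0.37), Il7r (3.99 ± 0.70) and Klf2 (3.77 ± 0.88) were higher, as was Foxo1 (3.37 ± 0.31). The groups share no class of Xist and Eif2s3y. With it as a block the calls of Btg2 (0.76) and Cdkn1a (-0.99) ended, and Cdkn1b (1.65), Cdkn1c (1.26) and Cdkn2c (-1.76) were called. Without ETP replicate 1 Btg2 was 0.92 and Btg1 0.83. The calls of Btg2 (1.39 and 1.37) and Btg1 (1.15 and 0.93) also ended without CD4 replicate 1 or 2, and that of Cdkn1a without CD4 replicate 2 (-1.27), ETP replicate 2 (-1.23) or 3 (-1.20) and with the mean of probe sets (-0.72).

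NKmature had 7 of 8 members called against CLP, in a comparison where 41.3% of all genes were called. Cdkn2d (4.87 ± 0.40, adjusted p = 1.76e-12, 29.1-fold, or 4.07 with the floor of 16, CLP being dim), Btg1 (3.41 ± 0.40, adjusted p = 6.3e-09), Cdkn1b (2.73 ± 0.29, adjusted p = 8.38e-10), Ccng2 (2.73 ± 0.41, adjusted p = 7.35e-07), Cdkn2c (1.96 ± 0.37, adjusted p = 3.04e-05) and Btg2 (1.42 ± 0.50, adjusted p = 0.0141) were higher. Cdkn1a was lower (-2.47 ± 0.56, adjusted p = 0.000293), and Cdkn1c (-0.36 ± 0.28) was not called. Mitosis genes were higher in 20 of 22 cases and lower in 1. Of 19 other inhibitors 8 were higher, led by Tob1 (4.72 ± 0.38), Rbl2 (4.21 ± 0.53), Rb1 (3.94 ± 0.38) and Gadd45g (3.68 ± 0.48), and 2 were lower, Mxi1 (-1.36 ± 0.29) and Gadd45a (-1.41 ± 0.54). All 5 measured neutrophil markers were called higher as well, and their part was not tested. NKmature and CLP share no class of Xist and Eif2s3y. Btg2 lost its call without CLP replicate 2 (1.40) or NKmature replicate 1 (1.37), with the mean of probe sets (0.62) and with quantile normalization again (0.65).

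With the 3 groups of mature lymphocytes (IgM+SP, CD4, NKmature) set against the 4 of lymphoid progenitors (CLP, ProB, PreB, ETP), 5 of 8 members were called, beside 9.74% of all genes. Btg1 (1.60 ± 0.21, adjusted p = 6.09e-08), Cdkn2d (1.46 ± 0.21, adjusted p = 4.44e-07), Cdkn1b (1.10 ± 0.15, adjusted p = 2.18e-07) and Ccng2 (1.05 ± 0.21, adjusted p = 0.000103) were higher in mature cells. Cdkn1a was lower (-1.36 ± 0.29, adjusted p = 0.000214). For each of these the arrays of the sets overlapped. PreB, among the progenitors, had the highest mean of Cdkn1b of all groups (8.95). Its means of Btg1 (12.27) and Ccng2 (10.30) lay above those of NKmature (12.14 and 9.30) and CD4 (12.01 and 8.72). CLP means were low, at 8.74 for Btg1, 5.64 for Cdkn1b and 6.58 for Ccng2. Cdkn2d was high in CD4 (mean 7.78) and NKmature (8.07), but IgM+SP (5.28) lay below PreB (7.72) and the arrays labelled ProB (7.56). CLP and ETP were under the filter level for Cdkn2d, and its difference was 1.21 with the floor of 16. All 5 measured neutrophil markers were called higher in the mature set, with list means of 11.04 and 10.34 in IgM+SP, 10.76 and 10.86 in NKmature and 3.85 and 4.43 in CD4, and their part was not tested. Tob1 (2.22 ± 0.19), Rbl2 (1.64 ± 0.27) and Gadd45g (1.14 ± 0.25) were higher and Klf4 lower (-2.16 ± 0.46). Cdkn1b slipped under 2-fold without CD4 replicate 2 (0.99), without PreB replicates 1 and 2 (0.96), with the mean of probe sets (0.98) and with quantile normalization (0.96). Ccng2 did so without CD4 replicate 1 (0.97), ETP replicate 3 (0.99) or PreB replicate 1 (0.99), without the arrays labelled ProB (0.82), with the mean of probe sets (0.48), with the class block (0.97) and with quantile normalization (0.86).

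Levels of the members were set beside the mean of 22 mitosis genes to see which went with dividing populations. Cdkn2c followed that mean over the 17 groups (r = 0.81, Spearman rho = 0.85), while the other 7 members had r between -0.36 and -0.02. The mitosis mean was 9.49, 9.32 and 9.45 in ProE, the group highest in Cdkn2c, and 5.05 and 6.99 in LTHSC, the group lowest in it. On the arrays labelled ProB, high in Cdkn2c too, it was 7.52 and 7.73, and in NKmature 8.86 and 8.81. CD4, where Cdkn2d was high and Cdkn2c low, had mitosis means of 5.27 and 5.0. The 2 INK4 genes thus parted in CD4 and ran together in PreB and NKmature. They also parted elsewhere, LTHSC being lowest in Cdkn2c and 5th in Cdkn2d, and ProE highest in Cdkn2c and 12th in Cdkn2d. Over the 17 groups the INK4 genes had r = 0.26. These are descriptions over 17 groups, whose points share arrays and amplification with the genes compared.

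**Figure D4:**
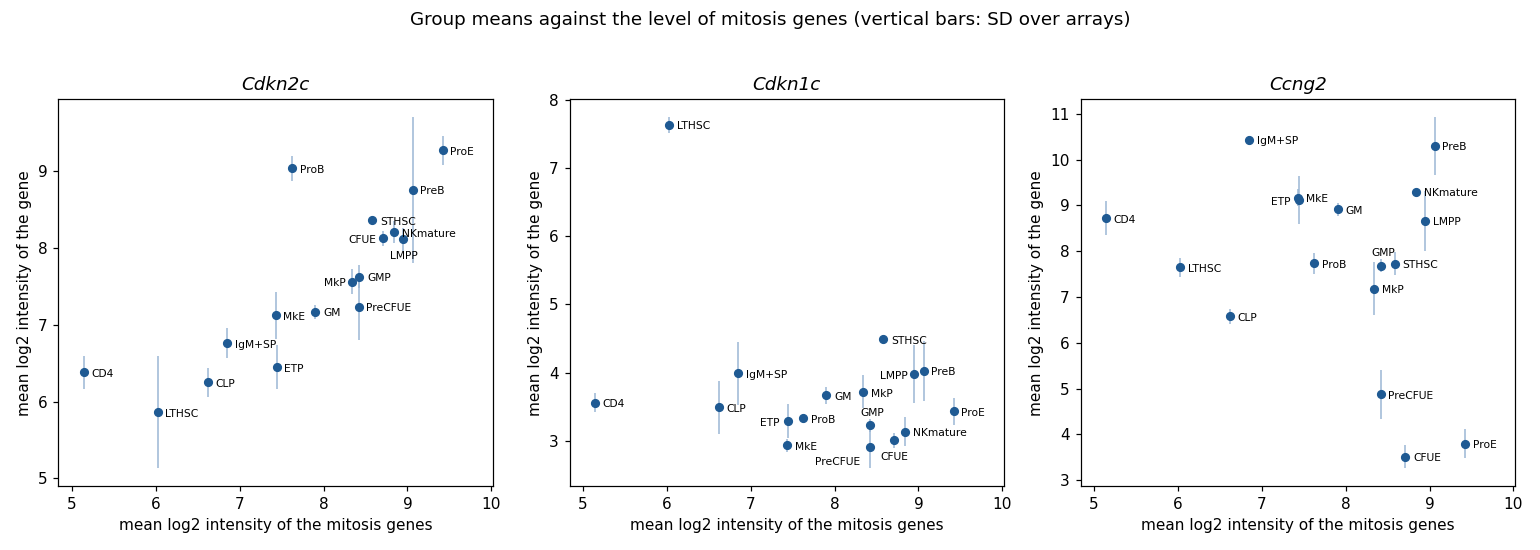
Group mean level of Cdkn2c, Cdkn1c and Ccng2 (log2, vertical axis) against the mean level of 22 mitosis genes (log2, horizontal axis); points are the 17 groups and bars the SD between arrays. Cdkn2c climbs with the mitosis mean (r = 0.81), whereas Cdkn1c is high in LTHSC alone and Ccng2 is low in the erythroid groups at high mitosis means.

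Immediate early genes moved with Btg2, Cdkn1a and Ccng2 within LMPP and ETP, the groups whose arrays differed most in them. Over the 47 arrays, the deviation of Btg2 from its group mean had r = 0.77 with that of the mean of 14 immediate early genes. Cdkn1a had 0.58, Ccng2 -0.60 and the other 5 members from -0.30 to 0.36. These r rest largely on the arrays of LMPP and ETP. The list mean was 10.17 and 9.38 on the LTHSC arrays, 9.78, 9.57, 9.14, 5.03 and 5.04 on those of LMPP and 6.07, 8.67 and 9.0 on those of ETP. Arrays of 1 group that were low in immediate early genes, LMPP replicates 4 and 5 and ETP replicate 1, were low in Btg2 (8.72, 8.80, 8.22, 7.31 and 6.72 in LMPP, 7.27, 8.52 and 8.78 in ETP) and in Cdkn1a (8.24, 7.48, 7.55, 6.55 and 6.56 and 4.86, 6.45 and 6.50) and high in Ccng2 (8.18, 8.14, 8.24, 9.32 and 9.45 and 9.68, 9.03 and 8.64). The LTHSC arrays went the same way in each of these genes. In STHSC (list means 9.33 and 9.87) Btg2 did so, but Cdkn1a (7.59 and 6.33) and Ccng2 (7.55 and 7.90) went the other way. MkE arrays were all low in the list (4.99, 4.92, 5.15 and 5.09). Whether the group differences of Btg2 and Cdkn1a follow from this was not tested.

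**Figure D5:**
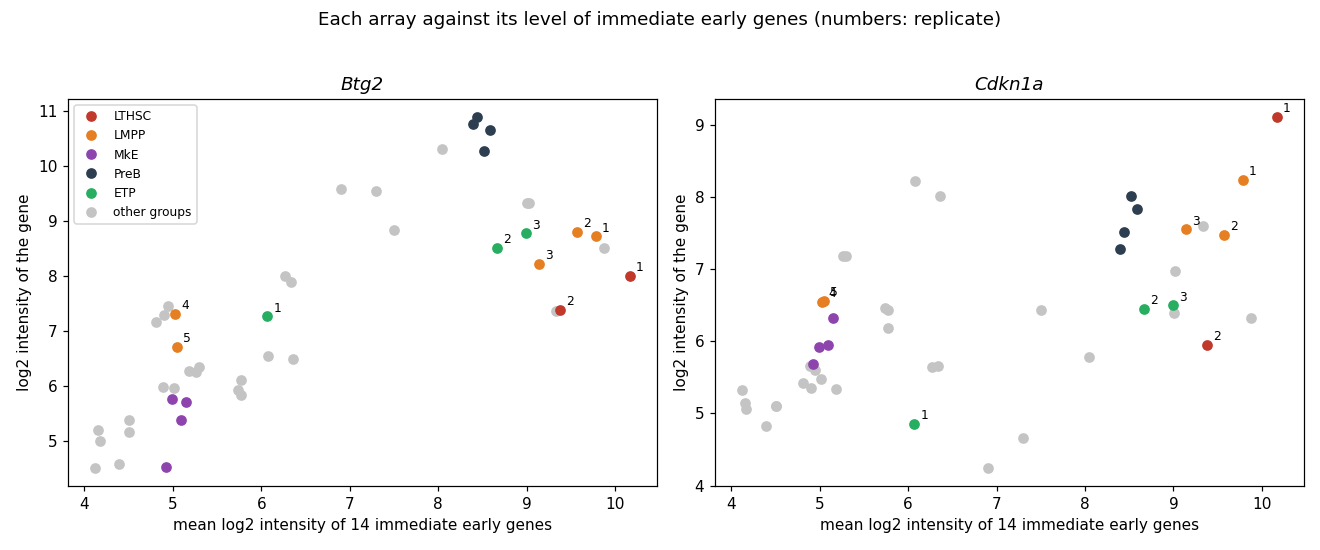
Level of Btg2 and Cdkn1a (log2, vertical axes) on each of the 47 arrays (points, coloured by group) against the mean of 14 immediate early genes (log2, horizontal axis). LMPP replicates 4 and 5 and ETP replicate 1 lie at the left of their groups, with lower Btg2 and Cdkn1a than their partners.

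The known regulators of these genes were called in part. Of 12 tested FoxO targets from 1 to 8 were called in a comparison, of 14 p53 targets from 0 to 4, and of 16 regulators from 0 to 7. Over all 20 comparisons 32.5% of the values of FoxO targets were called and 15% of those of p53 targets, beside 15.3% of values over all genes, and the share for 19 other inhibitors was 27.1%. Shares over the fixed lists ran from 11.7% for the neighbours of Cdkn1c to 58.6% for mitosis genes, with 31.1% for immediate early genes. Mdm2, a p53 target as is Cdkn1a, was called higher in NKmature than in CLP (1.40 ± 0.28), where Cdkn1a was lower (-2.47). The p53 target Zmat3 was higher in MkE than in LTHSC (2.84 ± 0.36), where Cdkn1a was lower (-1.56), and Plk2 was lower there with it (-2.95 ± 0.63).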

How the data were processed

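RNA from 2000 purified adult mouse bone marrow cells per array was amplified in a dual round and hybridised to Affymetrix arrays, as the series design text states. The deposited values are linear RMA intensity, computed by the authors (series design text), and the RMA software, its version and the scaling are not stated in these sources. Array medians spanned 13.8 to 16.9. Values are relative to the array's other transcripts, and precision depends on how many arrays a group has.

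Log2 was taken with no pseudocount. Of 45101 probe sets 34958 had 1 gene symbol in the platform annotation, 932 had several and 9211 were not listed. The brightest probe set over all arrays stood for a gene, also for the 9012 of 18194 genes with several. Levels of one probe set were not compared with those of another. With limma 3.58.1 (R 4.3.3), 17 group means were estimated from the 47 arrays jointly, leaving 30 residual degrees of freedom. Tests were two-sided, with Benjamini-Hochberg adjustment over 13949 genes per comparison, and the script was tested on simulated data. Groups came from the labels.

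All 8 members are named in every group, with the 3 genes most correlated over group means and the largest called genes of fixed lists. Members, lists and tests were chosen with earlier results of these data known. Alternatives were the mean of all probe sets or each other one, no filter or one at 5.97, quantile normalization again, centring, a floor of 16, a trended robust spread, the compared groups alone, replicate and sex class blocks, no fold minimum, and leaving out arrays. Those on PreB pairs, LMPP replicates 3 to 5 and the ProB arrays were added after seeing the data. Sex classes took Xist above 7 and Eif2s3y above 5. Promoters are RefSeq's, on GRCm38.p6.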

Additional observations from a re-analysis of the deposited data

How the results depend on the processing

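Of the 73 called member values, 52 kept their direction and call whichever 1 array was left out. Under all other settings, with the mean of all probe sets but not single other probe sets among them, 40 did so, and 39 under both. Some of these 39 were lost with another probe set alone, such as Ccng2 for PreCFUE against MkE (-0.20 with its dim second set). The total of calls was 59 with the mean of all probe sets, 65 with the compared groups alone, 72 with quantile normalization again, 78 with the class of Xist and Eif2s3y as a block, 87 with no fold minimum and 69 to 76 without 1 array. By gene, Ccng2 had 5 calls with the mean of probe sets, Cdkn1c 8 with no fold minimum, and Cdkn1a 3 and Cdkn2d 15 with the sex class block. Leaving out 1 array gave Btg1 10 to 12 calls, Btg2 8 to 11, Ccng2 10 to 13, Cdkn1a 7 to 10, Cdkn1b 9 to 11, Cdkn1c 3 to 4, Cdkn2c 9 to 11 and Cdkn2d 8 to 9.

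Directions turned in these cases, and the cause was not tested. Without 1 array, Cdkn1a ran from -3.14 to 0.012 for MkE against LTHSC and from -0.26 to 2.89 for LTHSC against the other groups. With the sex class block, Cdkn2c was -0.27 for MkE against LTHSC, and Cdkn2d was 1.59 for LMPP against MkE and -1.29 for GM against GMP. For MkE against LTHSC, Btg1 was -0.21 with the mean of its probe sets and -0.20 and -1.87 with each other set alone. The latter set gave Btg1 1.07 for LMPP against MkE and 0.34 for ProE against MkE. The dim second set of Ccng2 gave -0.17 for MkE against LTHSC, 0.15 for MkP against MkE, -0.15 for GM against GMP, -1.17 for IgM+SP against PreB and -0.10 for mature against progenitor lymphoid groups. The second set of Btg2 gave -1.86 for ETP against LMPP and -0.19 for NKmature against CLP, and that of Cdkn1a 0.037 for CD4 against ETP.

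Replicate numbers are shared in 18 comparisons, and in none with 3 or more did every pair of same-numbered arrays deviate together (r over 0.1). STHSC and LTHSC share only 2 numbers, with r of 0.377, too few to pair arrays. With the replicate block, 77 member values were called. Cdkn1c for LMPP against MkE ended at 0.93, and Cdkn2c there (1.02), Cdkn1a (-1.16) and Cdkn2d (-1.16) for GMP against LMPP, Btg2 for PreB against ProB (1.20) and Cdkn2d for ProE against MkE (-1.17) were gained. Over all genes, the count called moved by more than 1.5 times in 11 of 20 comparisons with the mean of probe sets, in 5 with the compared groups alone (down to 3 genes), in 7 with the sex class block and in 15 with no fold minimum. Quantile normalization again moved the split of higher and lower genes by over 10 points in 9 comparisons, and the sex class block did so in 5. Dim values limit Cdkn1c outside LTHSC, Cdkn2d in CLP, PreCFUE, CFUE and ETP, and Ccng2 in CFUE and ProE.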
